A study of Mus musculus with 24 samples.

Results

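The genes described here are 9 members of the nitric oxide, cGMP, prostacyclin and endothelin pathways, taken by symbol from a count table of 41128 mouse genes: Nos3, Gucy1a1, Gucy1b1, Prkg1, Pde5a, Ptgis, Edn1, Ednra and Ednrb. The table lists Gucy1a1 and Gucy1b1 under their older symbols, Gucy1a3 and Gucy1b3. The series holds 24 RNA-seq libraries of mouse aorta, 6 in each of 4 groups of genotype and treatment: Ppp3cb KO with angiotensin II (AngII), Ppp3cb KO control, wild type (WT) with AngII, and WT control, each of 3 females and 3 males. KO mice carried the constitutive Ppp3cbtm1Jmk allele from a mixed B6 and 129S6 stock and lack the beta catalytic subunit of calcineurin, a calcium-activated phosphatase. All mice were 5 months old. AngII, a hormone that raises blood pressure, was delivered over 4 weeks by an osmotic minipump (500 ng/kg/min). A pump or vehicle for the control mice is not mentioned in the labels, nor is it stated that WT and KO mice were littermates. The comparisons address how AngII and loss of Ppp3cb relate to these vascular tone genes.

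Nitric oxide made by endothelial nitric oxide synthase (Nos3) diffuses into vascular smooth muscle and activates soluble guanylyl cyclase, a dimer of an alpha and a beta subunit (Gucy1a1 and Gucy1b1). The cGMP it makes activates cGMP-dependent protein kinase I (Prkg1), which relaxes the muscle, and phosphodiesterase 5 (Pde5a) breaks the cGMP down. Prostacyclin, made by prostacyclin synthase (Ptgis), relaxes the vessel through cAMP. Endothelin-1 (Edn1), released mainly by endothelium, contracts it through the ETA receptor (Ednra) on smooth muscle, while the ETB receptor (Ednrb) on endothelium promotes nitric oxide release and clears endothelin.

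Library totals were 1523328 to 6352365 counts (median 3835993), of which 1109737 to 3188442 fell on protein-coding genes. Ppp3cb was at 21.3 ± 6.11 CPM in KO (11.2 to 30.3) and 41.9 ± 10.8 CPM in WT aortas (28.1 to 69.4; SD, n = 12 each), so the ranges overlapped, with CPM being counts scaled to equal library size by the TMM method. Which part of the gene the allele lacks is not given in the labels, so these gene-level counts check the labels only in part. The 3 KO control female libraries stood apart: they had the lowest totals (1523328 to 2401264). Olfactory and vomeronasal receptor genes held 1001 to 1992 CPM of their protein-coding counts and 110 to 1073 CPM in the other 21 libraries, so this measure overlapped. Their summed smooth muscle markers, at 11444 to 16835 CPM, compare with 15853 to 31141 CPM in the other 21 libraries. Values without replicates 1 and 3 of this group are given for the calls and for some of the differences that use it. The share of counts on rRNA, snRNA and misc RNA genes also varied, from 2.51% to 40.3% over the libraries, with medians of 32.2% in males and 17.8% in females and of 30.8% in AngII mice and 20.9% in controls. The 6021 genes of chromosomes 9, X, Y and MT, with 526 at the end of chromosome 8, had 0 counts throughout and were treated as not measured. None of the 9 genes lies there, and all 9 passed the count filter with 16316 genes in all.

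The labelled tissue was checked against its markers: Myh11, Acta2 and the other markers measured summed to a mean of 23361 CPM over the 24 libraries, against 1422 CPM for the endothelial markers. Of the listed markers, Tagln and Cnn1 (smooth muscle) and Cdh5, Esam and Robo4 (endothelium) were at 0 in every library and lie in the regions not measured. Bulk aorta RNA was sequenced, so fewer cells of a type and less RNA per cell cannot be told apart.

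The 5′ windows of the cyclase genes are shown first, because Gucy1a1 was the member whose WT AngII and WT control libraries did not overlap. The genes lie next to each other on the minus strand of chromosome 3 (mm10): Gucy1a1 (ENSMUSG00000033910) at chr3:82092427-82145789 and Gucy1b1 (ENSMUSG00000028005) at chr3:82032006-82074689, with 17737 bases between the start of one and the end of the other. The 300-base windows are from RefSeq (GRCm38.p6), run 5′ to 3′ on the minus strand, and cover 250 bases before to 50 bases after an annotated start. Capitals mark GGAAA, the core of the site bound by NFAT, the transcription factor family that calcineurin activates, read on either strand (TTTCC is the same core on the reverse strand). Window 1 of Gucy1a1 is chr3:82145601-82145900, window 2 is chr3:82145024-82145323, and the Gucy1b1 window is chr3:82074662-82074961.
Gucy1a1 window 1: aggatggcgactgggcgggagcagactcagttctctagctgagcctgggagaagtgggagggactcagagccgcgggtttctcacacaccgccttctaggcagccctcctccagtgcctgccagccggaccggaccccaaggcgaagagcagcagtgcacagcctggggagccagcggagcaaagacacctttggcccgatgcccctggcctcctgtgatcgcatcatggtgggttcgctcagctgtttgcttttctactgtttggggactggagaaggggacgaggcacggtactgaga
Gucy1a1 window 2: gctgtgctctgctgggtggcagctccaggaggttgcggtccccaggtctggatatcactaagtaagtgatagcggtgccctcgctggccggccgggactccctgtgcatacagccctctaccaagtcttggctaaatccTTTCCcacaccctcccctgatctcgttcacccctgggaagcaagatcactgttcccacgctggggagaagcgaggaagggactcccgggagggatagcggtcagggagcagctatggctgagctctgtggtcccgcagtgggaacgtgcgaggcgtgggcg
Gucy1b1 window: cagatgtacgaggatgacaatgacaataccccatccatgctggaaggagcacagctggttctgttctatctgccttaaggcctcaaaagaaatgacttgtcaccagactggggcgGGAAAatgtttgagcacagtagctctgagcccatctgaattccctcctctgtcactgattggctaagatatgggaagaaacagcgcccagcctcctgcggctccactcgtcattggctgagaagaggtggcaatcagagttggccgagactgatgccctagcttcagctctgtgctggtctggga
The first Gucy1a1 window held 0 copies of the core, the second held 1 on the reverse strand, and the Gucy1b1 window held 1 on the forward strand. RefSeq windows were matched for 7 of the 9 genes, 9 windows in all, and 7 of these held the core, against 61.3% of 32851 mouse windows of the same length. The CArG box, the element bound by serum response factor, was in 0 of the 9 windows and in 1.63% of all windows. The letters GAGACC, the core of a shear stress element, were in 4 of the 9 and in 16.4% of all. GATA was in 5 of the 9 and in 57.9% of all, and TGACTCA, an AP-1 site, was in 0 of the 9 and in 5.20% of all. Each motif was searched on both strands. A match here describes letters and not a bound site.

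Levels per kilobase of exon set the order of the genes in WT controls. Gucy1a1 (39.7 ± 7.27 CPM per kb, SD, n = 6), Ptgis (38.4 ± 10.2) and Gucy1b1 (33.4 ± 5.67) were highest and overlapped one another within their SD. Pde5a followed at 22.1 ± 4.05 CPM per kb (17.9 to 29.7), lower than Gucy1b1 (22.6 to 38.2) by more than their SDs although the ranges overlapped. Prkg1 (9.14 ± 1.92) and Nos3 (7.49 ± 4.09) came next and overlapped each other. Ednra (3.82 ± 1.16), Edn1 (3.44 ± 2.30) and Ednrb (2.96 ± 0.790) were lowest and overlapped as well. Nos3 and Ednra also overlapped within their SD, so the order between them is not firm. In WT AngII mice Ptgis stood first at 62.2 ± 16.8 CPM per kb, ahead of Gucy1b1 at 30.2 ± 7.32 and Gucy1a1 at 23.2 ± 2.12. Ptgis also had the highest mean in KO AngII mice (49.1 ± 12.7 CPM per kb) and in KO controls (35.4 ± 17.1). In both groups Gucy1b1 (34.8 ± 7.73 and 32.2 ± 5.13) and Gucy1a1 (34.5 ± 15.4 and 31.0 ± 4.39) overlapped it within their SDs.

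**Figure D1:**
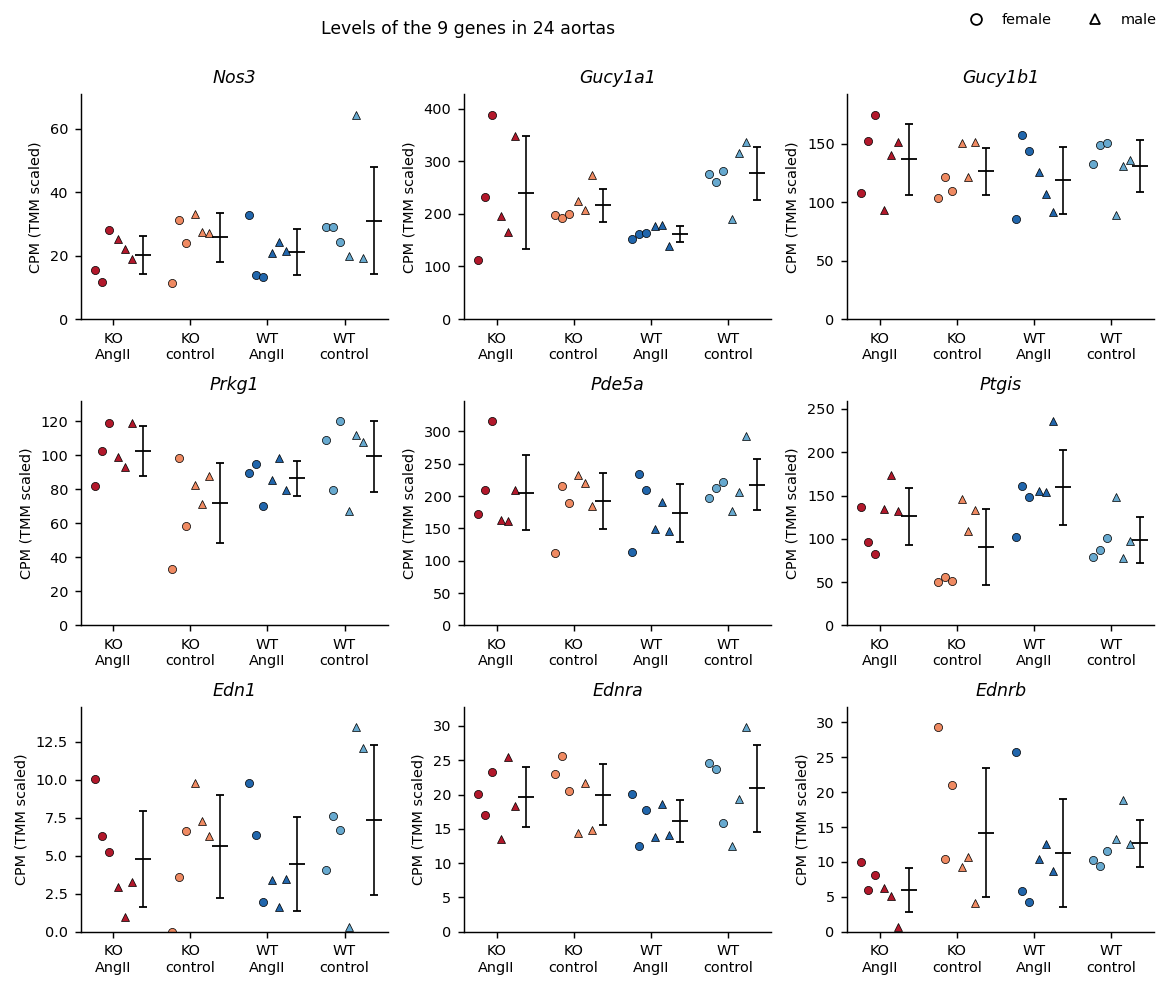
TMM-scaled CPM of each gene in every library (circles, females; triangles, males), with the mean and SD (n = 6) at the right of each group of genotype and treatment. WT AngII aortas lie below all WT controls for Gucy1a1 and WT AngII aortas reach 236 CPM for Ptgis.

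Ptgis was the 1 member called, at an adjusted p under 0.05 over 16316 genes, and it was called in both the pooled AngII comparison and the comparison of the sexes. It rose with AngII over both genotypes by 0.64 ± 0.13 log2 (SE; edgeR quasi-likelihood test, adjusted p = 0.0132), in a comparison that called 0.656% of all genes and 1 of the 9. In KO mice it was at 82.5 to 174 CPM with AngII (median 133) and at 50.3 to 146 CPM in controls (median 82.5). In WT mice it was at 102 to 236 CPM with AngII (median 155) and at 78.0 to 148 CPM in controls (median 92.4). The groups overlapped in both genotypes, through the 3 KO control males (109 to 146 CPM) in KO and through WT control male replicate 1 (148 CPM) in WT. Taken alone, the KO difference was 0.59 ± 0.19 log2 (adjusted p = 0.388) and the WT difference 0.69 ± 0.19 (adjusted p = 0.182), and neither passed the threshold. The responses of the genotypes differed by -0.10 ± 0.27 (KO minus WT, 95% interval -0.64 to 0.45, adjusted p = 0.9999). The pooled call held in all 24 fits that left out 1 library (adjusted p 0.00323 to 0.0428). Without KO control female replicates 1 and 3 the change was 0.62 with an adjusted p of 0.0537, so the call was lost there. It was also lost with the rRNA, snRNA and misc RNA share as a covariate (0.53 ± 0.13, adjusted p = 0.0983). Exons of Ptgis share 156 bases (6.08%) with 1110018N20Rik on the opposite strand.

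Sexes were read separately for Ptgis because its level differed between them. In KO males AngII libraries were at 134, 174 and 133 CPM and controls at 146, 109 and 133 CPM, which overlapped. In KO females AngII libraries were at 137, 96.0 and 82.5 CPM and controls at 50.3, 56.1 and 51.0 CPM, with no overlap. In WT males AngII libraries were at 155, 154 and 236 CPM and controls at 148, 78.0 and 97.6 CPM. In WT females AngII libraries were at 102, 161 and 149 CPM and controls at 78.8, 87.2 and 102 CPM. The nearest AngII and control libraries of WT females both round to 102 CPM. The AngII libraries lay above all controls in KO females, WT males and WT females, as was so for 6.85%, 8.1% and 5.81% of all genes. The difference of the male and female responses in KO was -0.82 ± 0.38 log2 (unadjusted p = 0.0380, adjusted p = 0.632), and -0.75 ± 0.45 without KO control female replicates 1 and 3. Over all groups Ptgis was higher in males, at 78.0 to 236 CPM (median 140), than in females, at 50.3 to 161 CPM (median 91.6). The difference of 0.62 ± 0.13 log2 was called (adjusted p = 0.00546), in a comparison that called 5.27% of all genes, and held without KO control female replicates 1 and 3 (0.62, adjusted p = 0.0141). The rRNA, snRNA and misc RNA share differed between the sexes in its median (32.2% in males, 17.8% in females). It was 16.9% to 40.1% in males and 2.51% to 40.3% in females. Its relation to Ptgis from library to library was not tested, and groups went both ways. KO control females, at 2.51%, 11.6% and 13.3%, had the lowest Ptgis values of the series (50.3, 56.1 and 51.0 CPM). KO AngII females at 40.3%, 17.7% and 9.31% had 137, 96.0 and 82.5 CPM. WT control males at 37.7%, 19.6% and 16.9% had 148, 78.0 and 97.6 CPM. In WT AngII males the highest share (39.3%) also went with the highest Ptgis (236 CPM). The order differed in WT AngII females, where 23.6%, 19.5% and 15.4% went with 102, 161 and 149 CPM. In WT control females 22.2%, 22.9% and 17.8% went with 78.8, 87.2 and 102 CPM. In KO males the highest share of either treatment did not go with the highest Ptgis. With this share as a covariate, edgeR gave a sex difference of 0.34 ± 0.18 log2 for Ptgis (adjusted p = 0.470), which was not called, and called 50 of all genes in place of 860.

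Markers of smooth muscle, fibroblasts and endothelium were set beside these Ptgis differences. Summed smooth muscle markers were at 24444 ± 4348 CPM in AngII mice and 22278 ± 5806 CPM in controls (SD, n = 12 each). Summed fibroblast and adventitia markers were at 2965 ± 635 CPM in AngII mice and 2706 ± 550 CPM in controls. By sex the latter were at 2898 ± 496 CPM in males and 2774 ± 699 CPM in females. Each of these pairs overlapped within its SD. Smooth muscle markers were higher in males in 12 of the 14 tested (median 0.38 log2, 5 called), and Ptgis per 1000 CPM of summed smooth muscle markers was 5.41 ± 1.45 in males and 4.74 ± 1.63 in females (SD, n = 12 each). By the same measure it was 5.93 ± 1.61 in AngII mice and 4.21 ± 0.883 in controls. Fibroblast and adventitia markers were higher with AngII over both genotypes in 12 of 13 (median 0.17, 0 called), and Ptgis per 1000 CPM of these was 51.1 in AngII mice (range 22.7 to 99.8, n = 12) and 36.0 in controls (range 15.4 to 59.2, n = 12). Summed endothelial markers went the other way, at 1198 ± 312 CPM in AngII mice and 1645 ± 658 CPM in controls (SD, n = 12 each). They were at 1361 ± 683 CPM in males and 1483 ± 405 CPM in females. The part of cell composition in the Ptgis results was not tested. The genes whose log2 CPM ran closest to Ptgis over the 24 libraries were Col18a1 (Pearson r = 0.93) and Col4a2 (r = 0.92), both basement membrane collagens, among 5177 genes compared (mean log2 CPM 4 or more). These libraries share the treatment and sex differences described above, so the correlations are descriptive.

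Gucy1a1, the alpha-1 subunit of soluble guanylyl cyclase, was lower in every WT AngII library than in any WT control library. WT AngII libraries were at 139 to 178 CPM (median 162) and WT controls at 191 to 337 CPM (median 279). In 0.264% of all genes WT AngII libraries lay below all WT controls, and Gucy1a1 was 1 of the 9 genes to do so. The fitted difference was -0.78 ± 0.22 log2 with a 95% interval of -1.22 to -0.33, and it was not called (edgeR, unadjusted p = 0.00129, adjusted p = 0.228). Of 12 other settings 3 called it: DESeq2 gave -0.82 (adjusted p = 0.0349), limma-voom with quality weights -0.78 (adjusted p = 0.00276), and edgeR on the 12 WT libraries alone -0.79 (adjusted p = 0.0397). The other 9 gave -0.83 to -0.56 with adjusted p from 0.0502 to 1, the smallest difference being with the rRNA, snRNA and misc RNA share as a covariate. In fits that each omitted 1 library the difference ran between -0.88 and -0.71, with adjusted p from 0.0691 to 0.653.

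Because the WT groups did not overlap for Gucy1a1, they could not overlap within either sex, so the values by sex are no further support. WT AngII males were at 176, 178 and 139 CPM and WT control males at 191, 315 and 337 CPM (-0.77 ± 0.31 log2). WT AngII females were at 153, 161 and 163 CPM and WT control females at 276, 260 and 282 CPM (-0.78 ± 0.31 log2). The lowest WT control, male replicate 1, lay near the AngII range and the other 5 controls lay at 260 CPM or above. Non-overlap in this direction occurred for 6.09% of all genes in males and 5.59% in females.

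KO mice gave no such separation for Gucy1a1. KO AngII libraries were at 113 to 388 CPM (median 214) and KO controls at 192 to 274 CPM (median 203), so the AngII libraries spread to both sides of the controls. The KO difference was 0.16 ± 0.22 log2 (adjusted p = 0.917). The response in KO exceeded that in WT by 0.94 ± 0.31 log2 (95% interval 0.31 to 1.57, unadjusted p = 0.00490), which was not called over 16316 genes (adjusted p = 0.9999). In AngII mice Gucy1a1 was 0.57 ± 0.22 log2 higher in KO than in WT (adjusted p = 0.448), and in controls the KO value relative to WT was -0.36 ± 0.22 (adjusted p = 0.605). Neither was called, and the value in AngII mice was 0.30 without KO AngII female replicate 3. Without KO control female replicates 1 and 3 the KO difference was 0.20 ± 0.27 and the difference of responses 0.97 ± 0.35.

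Gucy1b1, the beta-1 partner that the active cyclase requires, did not separate the same libraries. KO AngII libraries were at 93.5 to 175 CPM (median 146) and KO controls at 104 to 151 CPM (median 121). It was at 85.6 to 157 CPM in WT AngII mice (median 116) and at 88.7 to 150 CPM in WT controls (median 134), and the groups overlapped widely in both genotypes. The KO difference was 0.12 ± 0.18 log2 (95% interval -0.25 to 0.49) and the WT difference -0.14 ± 0.18 (interval -0.52 to 0.23).

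The ratio of the subunits within a library is free of library scaling. In KO, counts of Gucy1a1 per count of Gucy1b1 were 1.73 ± 0.55 with AngII (1.05 to 2.30) and 1.72 ± 0.16 in controls (1.49 to 1.90; SD, n = 6 each). In WT the ratio was 1.42 ± 0.30 with AngII (1.02 to 1.79) and 2.13 ± 0.29 in controls (1.75 to 2.49), which overlapped at their edges. These are count ratios, and the exon length of Gucy1a1 (6968 bases) exceeds that of Gucy1b1 (3927 bases), so they are not ratios of molecules. Of the smooth muscle markers tested, 9 of 14 were higher with AngII in WT (median 0.07 log2, 0 called). Gucy1a1 per 1000 CPM of these markers was 6.58 ± 1.23 in WT AngII mice and 11.8 ± 2.49 in WT controls. The part of smooth muscle content in the Gucy1a1 difference was not tested. Nearest to Gucy1a1 over the 24 libraries were Olfml2a and Gpsm2 (r = 0.78 each), and nearest to Gucy1b1 were Acadsb (r = 0.80) and Itga8 (r = 0.79), the last a smooth muscle marker of the list used here.

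**Figure D2:**
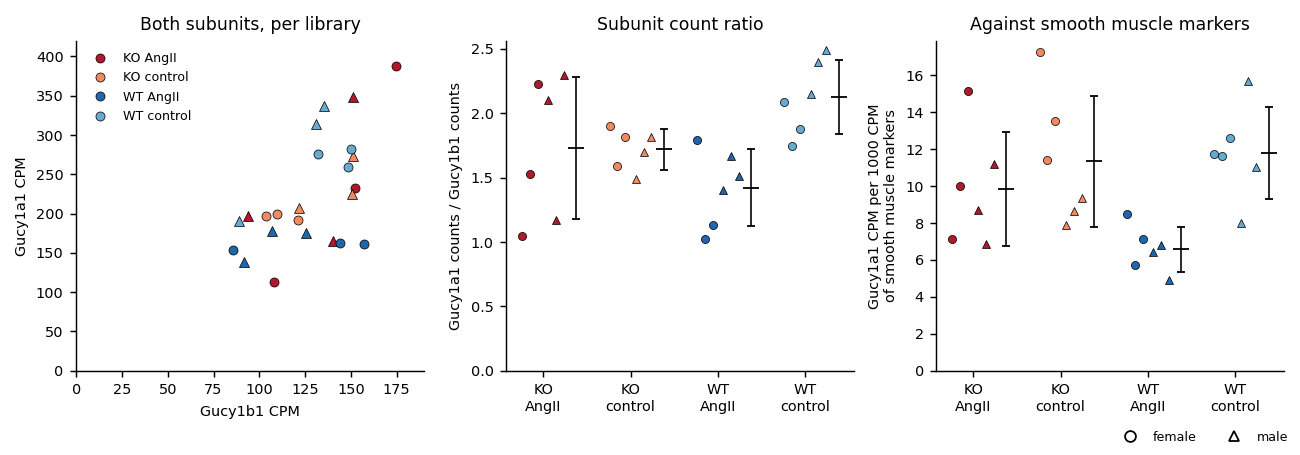
Left, Gucy1a1 against Gucy1b1 (CPM) per library; middle, their count ratio; right, Gucy1a1 CPM per 1000 CPM of smooth muscle markers (circles, females; triangles, males; bars, mean and SD, n = 6). The count ratio averages 1.73 in KO AngII mice and 1.72 in KO controls, and 1.42 in WT AngII mice and 2.13 in WT controls.

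Prkg1, the kinase that cGMP activates, differed most in KO. KO AngII libraries were at 82.1 to 119 CPM (median 101) and KO controls at 33.1 to 98.2 CPM (median 76.7), and they overlapped. The difference was 0.52 ± 0.20 log2 (adjusted p = 0.545) and was not called. In WT mice Prkg1 was at 70.1 to 98.1 CPM with AngII (median 87.7) and at 67.1 to 120 CPM in controls (median 108), a difference of -0.20 ± 0.20. The KO response exceeded the WT response by 0.71 ± 0.29 (unadjusted p = 0.0184, adjusted p = 0.9999). The lowest values in the series, 33.1 and 58.2 CPM, belonged to KO control female replicates 1 and 3. Without these libraries the KO difference was 0.22 ± 0.21 and the difference of responses 0.42 ± 0.27. In KO males every AngII library (98.7, 93.3 and 119 CPM) lay above every control (82.3, 71.2 and 88.0 CPM), as 3.74% of all genes did. In KO females the groups overlapped through control replicate 2 (98.2 CPM).

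Between genotypes in controls Prkg1 was -0.47 ± 0.20 log2 in KO relative to WT (adjusted p = 0.443). Leaving out KO control female replicate 2 gave -0.76 with an adjusted p of 0.0398, the only omission of a single library that called it, whereas leaving out replicates 1 and 3 gave -0.19. The 14 smooth muscle markers tested were all lower in KO controls than in WT controls (median -0.30, 0 called). In males 8 of 14 were higher (median 0.10) and in females 14 of 14 lower (median -0.60), and without KO control female replicates 1 and 3 the median over both was -0.18. Summed, they averaged 27223 CPM in KO and 24818 CPM in WT control males, and 14346 CPM in KO and 22727 CPM in WT control females. Prkg1 per 1000 CPM of them was 3.59 ± 1.17 in KO controls and 4.25 ± 1.12 in WT controls. In AngII mice KO exceeded WT by 0.25 ± 0.20 (adjusted p = 0.930). The genes nearest to Prkg1 were Katnal1 (r = 0.86) and Mfn2 (r = 0.85).

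Pde5a, the phosphodiesterase that ends the cGMP signal, was not called in any comparison. In KO it was at 162 to 316 CPM with AngII (median 191) and at 111 to 232 CPM in controls (median 203), a difference of 0.09 ± 0.20 log2. In WT it was at 114 to 234 CPM with AngII (median 169) and at 176 to 292 CPM in controls (median 209), a difference of -0.33 ± 0.20 (95% interval -0.74 to 0.08). Groups overlapped in both genotypes. Of the single pairs among the 9 genes, Pde5a and Gucy1b1 ran closest over the 24 libraries (r = 0.71). Rab2a (r = 0.82) and Specc1l (r = 0.81) were the genes nearest to Pde5a.

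**Figure D3:**
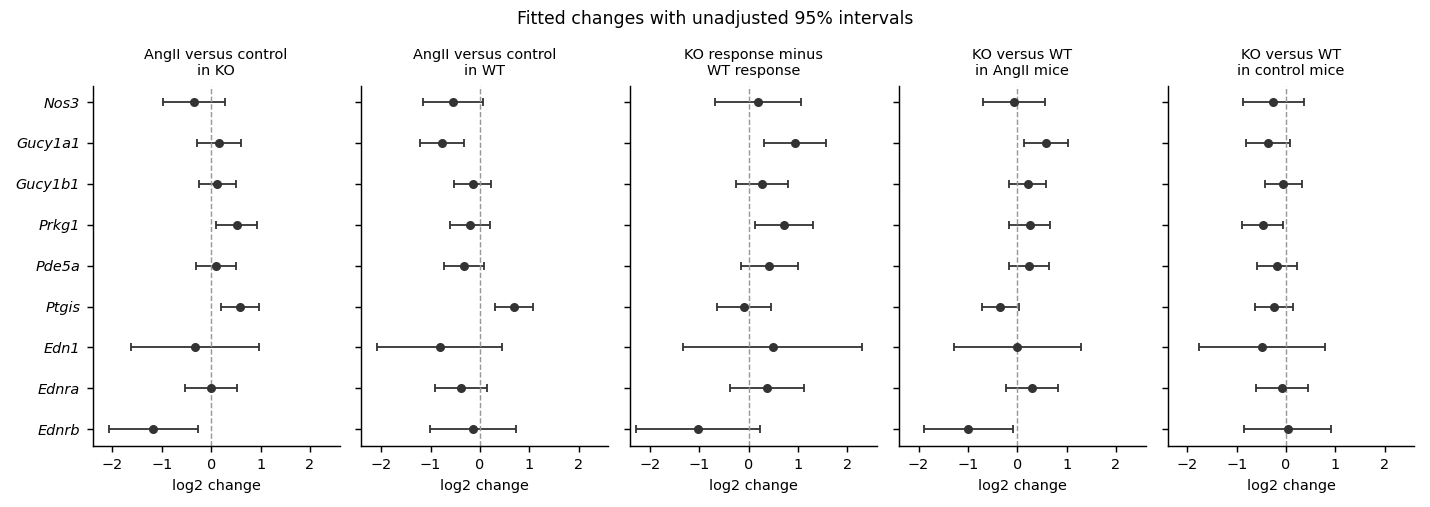
Fitted log2 change of each gene with its unadjusted 95% interval in 5 comparisons; the middle panel is the KO response minus the WT response. In WT the interval of Gucy1a1 runs from -1.22 to -0.33 and that of Ptgis from 0.31 to 1.07.

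Nos3 was lower with AngII in both genotypes, without passing the test in either. In KO it was at 11.8 to 28.0 CPM with AngII (median 20.4) and at 11.5 to 33.2 CPM in controls (median 27.3). It was at 13.3 to 32.8 CPM in WT AngII mice (median 21.2) and at 19.3 to 64.3 CPM in WT controls (median 26.6). Groups overlapped in both genotypes. The differences were -0.35 ± 0.31 log2 in KO (adjusted p = 0.844), -0.54 ± 0.30 in WT (adjusted p = 0.818) and -0.44 ± 0.21 over both (unadjusted p = 0.0464, adjusted p = 0.469). Without WT control male replicate 2, at 64.3 CPM, they were -0.15 in WT and -0.24 over both. Without KO control female replicates 1 and 3 the KO difference was -0.57 ± 0.33. In KO males every AngII library (25.3, 22.0 and 18.8 CPM) lay below every control (33.2, 27.4 and 27.2 CPM), as 5.3% of all genes did. KO females overlapped.

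Endothelial markers moved the same way as Nos3. In KO 14 of 17 tested were lower with AngII (median -0.37 log2, 0 called) and in WT 15 of 17 (median -0.64, 0 called). Their summed level was 990 to 1639 CPM in KO AngII mice, 1206 to 2465 CPM in KO controls, 771 to 1885 CPM in WT AngII mice and 814 to 3304 CPM in WT controls. Nos3 per 1000 CPM of these markers was 16.2 ± 3.80 in KO AngII mice and 16.5 ± 5.02 in KO controls. In WT it was 19.3 ± 6.63 with AngII and 18.6 ± 4.21 in controls. The part of endothelial content in the Nos3 differences was not tested. Exons of Nos3 share 1040 bases with the antisense gene Gm15587 (25.2% of the exon length) and 294 bases with Atg9b, and whether counting used strand is not given in the sources used here. The genes nearest to Nos3 were Igf2 (r = 0.77) and Epha4 (r = 0.76).

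**Figure D4:**
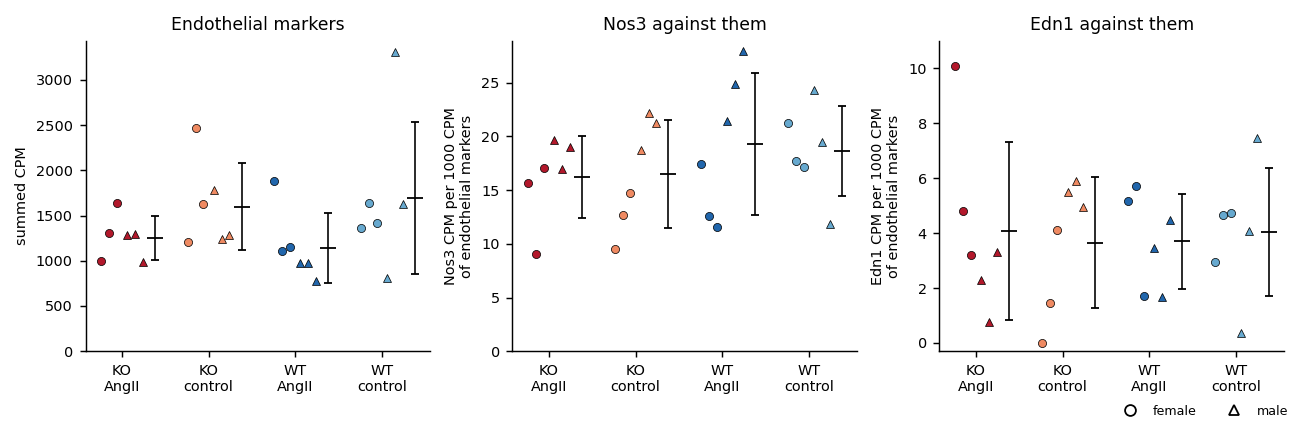
Summed CPM of the endothelial markers (left) and CPM of Nos3 (middle) and Edn1 (right) per 1000 CPM of them, per library (circles, females; triangles, males; bars, mean and SD, n = 6). The Nos3 ratio averages 19.3 in WT AngII mice and 18.6 in WT controls.

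Edn1, the endothelin-1 precursor, rested on few counts and was compared with wide error. Libraries held 0 to 57 counts, and the count of 0, in KO control female replicate 1, allows up to 3 counts there. In KO it was at 0.992 to 10.0 CPM with AngII (median 4.26) and at 0 to 9.77 CPM in controls (median 6.48), a difference of -0.33 ± 0.64 log2. In WT it was at 1.64 to 9.76 CPM with AngII (median 3.41) and at 0.296 to 13.4 CPM in controls (median 7.15), a difference of -0.82 ± 0.62 with an interval of -2.08 to 0.44. KO AngII males (2.93, 0.992 and 3.28 CPM) lay below KO control males (9.77, 7.30 and 6.32 CPM), as 5.3% of all genes did, and KO AngII females (10.0, 6.28 and 5.25 CPM) overlapped KO control females (0, 3.60 and 6.65 CPM). The male response minus the female response was -2.76 ± 1.27 in KO (unadjusted p = 0.0380, adjusted p = 0.632), and -2.73 ± 1.34 without KO control female replicates 1 and 3. Edn1 per 1000 CPM of endothelial markers was 4.07 ± 3.23 in KO AngII mice and 3.65 ± 2.39 in KO controls, and 3.70 ± 1.73 in WT AngII mice and 4.03 ± 2.33 in WT controls.

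Ednra, the receptor through which endothelin contracts smooth muscle, showed no call. It was at 13.6 to 25.5 CPM in KO AngII mice (median 19.2) and at 14.4 to 25.5 CPM in KO controls (median 21.1). It was at 12.4 to 20.0 CPM in WT AngII mice (median 15.9) and at 12.4 to 29.8 CPM in WT controls (median 21.5), and both pairs overlapped. The differences were -0.01 ± 0.26 log2 in KO (interval -0.53 to 0.52) and -0.38 ± 0.26 in WT (interval -0.90 to 0.15). Ptpn4 and Dis3l2 (r = 0.68 each) were nearest to it.

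Ednrb, the receptor for endothelin found on endothelium and on Schwann and neural crest cells, was lowest in KO AngII mice. Libraries there were at 0.655 to 10.0 CPM (median 6.07), and KO controls were at 4.13 to 29.3 CPM (median 10.6), with overlap. The difference was -1.17 ± 0.44 log2 (95% interval -2.07 to -0.27, adjusted p = 0.516), and without KO control female replicates 1 and 3, which held 29.3 and 21.1 CPM, it was -0.69 ± 0.50. In KO females AngII libraries (10.0, 5.91 and 8.16 CPM) all lay below controls (29.3, 10.4 and 21.1 CPM), as 5.85% of all genes did. In WT the difference was -0.15 ± 0.43, with AngII libraries at 4.18 to 25.8 CPM (median 9.53) and controls at 9.35 to 18.9 CPM (median 12.1). In AngII mice KO stood at -0.99 ± 0.44 relative to WT (adjusted p = 0.579). Without WT AngII female replicate 1, the library at 25.8 CPM, this was -0.39 and the WT difference -0.77. Nerve and Schwann cell markers were lower in KO AngII mice than in KO controls in 11 of 12 (median -1.21, 0 called), with summed levels of 90.2 to 126 CPM with AngII and 105 to 386 CPM in controls. These sums did not overlap in KO males (90.2 to 115 CPM with AngII, 204 to 386 CPM in controls). They overlapped in KO females (94.5 to 126 CPM with AngII, 105 to 190 CPM in controls). Ednrb itself went the other way, with separation in KO females and overlap in KO males. KO AngII males were at 6.23, 5.13 and 0.655 CPM and KO control males at 9.28, 10.7 and 4.13 CPM. Without KO control female replicates 1 and 3 the marker median over both sexes was -0.75. Ednrb per 1000 CPM of nerve and Schwann cell markers was 55.9 ± 26.3 in KO AngII mice and 89.2 ± 66.0 in KO controls. Summed endothelial markers were at 990 to 1639 CPM (median 1291) in KO AngII mice and 1206 to 2465 CPM (median 1451) in KO controls. The part of nerve, Schwann or endothelial cells in the Ednrb result was not tested. Itga6 and Muc6 (r = 0.79 each) ran closest to Ednrb.

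Over the 9 genes, edgeR called 0 in KO, 0 in WT, 0 for KO against WT in controls or in AngII mice and 0 for the difference of responses, where it called 0%, 0.208%, 0.221%, 0.355% and 0% of all genes. At an unadjusted p under 0.05 there were 3 in KO (Prkg1, Ptgis and Ednrb), 2 in WT (Gucy1a1 and Ptgis), 1 for KO against WT in controls (Prkg1), 2 in AngII mice (Gucy1a1 and Ednrb) and 2 for the difference of responses (Gucy1a1 and Prkg1). Those shares stand beside 7.71%, 6.71%, 9.73%, 7.75% and 4.03% of all genes in the same 5 comparisons. DESeq2 called Gucy1a1 in WT and limma-voom called Gucy1a1 and Ptgis in WT, and neither called another member in these 5 comparisons. In KO 4 of the 9 genes had a log2 change with AngII below 0, against 48.6% of all genes, and in WT 8 of the 9, against 51.2%, with Ptgis the exception.

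The wider pathway was described with 111 further genes in 7 role lists, of which 90 passed the count filter and 8 lie in the regions not measured, among them Gucy1a2, Rhoa and Piezo1. AngII called 0 of the 90 in KO, in WT and over both genotypes, and KO called 0 in control and in AngII mice (edgeR). Other settings called up to 4 in WT (limma-voom), 1 over both genotypes (DESeq2, and with no count filter) and 4 for KO against WT in controls (without KO control female replicate 2). At an unadjusted p under 0.05 there were 2 of the 90 in KO, 8 in WT and 5 over both genotypes. There were 9 for KO against WT in controls and 9 in AngII mice. Of all genes, 7.71%, 6.71%, 10.4%, 9.73% and 7.75% passed in the same 5 comparisons, so these counts are not read as a result about the pathway. The median change was 0.09 log2 in KO (53 higher, 37 lower) and 0.07 in WT (52 higher, 38 lower), against 0.01 in KO and -0.01 in WT for all genes.

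In WT the smallest p of each role list belonged to these genes, none of them called. Slc7a1, a carrier of arginine into cells, differed by 0.66 ± 0.24 log2 between AngII and control mice (adjusted p = 0.479). Hsp90aa1, a chaperone that binds the synthase, differed by 0.47 ± 0.19 (adjusted p = 0.592). Npr2, a receptor for C-type natriuretic peptide that makes cGMP, differed by 0.22 ± 0.19, and Rgs2, a brake on Gq signals that cGMP kinase regulates, by -0.66 ± 0.36. Pde11a, a phosphodiesterase for cAMP and cGMP, differed by -2.67 ± 0.81 (edgeR, adjusted p = 0.280) and held only 308 counts in total over the 24 libraries. Ptgs1, cyclooxygenase-1, which feeds prostacyclin synthase, differed by -0.69 ± 0.30 (adjusted p = 0.656), and Gna13, a G protein subunit, by 0.42 ± 0.23.

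For KO against WT in controls the corresponding genes were also not called. Gchfr, the feedback regulator of tetrahydrobiopterin synthesis, differed by -3.28 ± 1.54 log2 (edgeR, adjusted p = 0.431). It held 88 counts in total over the 24 libraries, so this difference rests on very few counts. Kdr, a VEGF receptor, differed by -0.89 ± 0.38 (edgeR, adjusted p = 0.427). Rgs2 differed by -1.19 ± 0.37 (adjusted p = 0.210), Npr2 by -0.27 ± 0.19, Pde1a by 0.69 ± 0.27 and Itpr1, the inositol trisphosphate receptor of the sarcoplasmic reticulum, by -0.39 ± 0.17. Ptgfr, the prostaglandin F receptor, differed by 2.13 ± 0.52 (adjusted p = 0.0747), at 5.02 to 27.4 CPM in KO controls (median 9.36) and 0.733 to 4.19 CPM in WT controls (median 2.16). Without KO control female replicates 1 and 3 the differences were 1.70 ± 0.62 for Ptgfr (adjusted p = 0.531), -1.06 ± 0.40 for Rgs2, -0.83 ± 0.43 for Kdr and 0.37 ± 0.29 for Pde1a.

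Sex called 5 of the 90 genes, all higher in males, against 3.44% of all genes called higher in males. Npr1, the natriuretic peptide receptor that makes cGMP at the membrane, was at 129 to 219 CPM in males (median 174) and 57.3 to 151 CPM in females (median 109), a difference of 0.73 ± 0.13 log2 (edgeR, adjusted p = 0.000762). Vasp, an actin regulator that cGMP kinase phosphorylates, differed by 1.00 ± 0.18 (adjusted p = 0.00114). Ppp1r12b, a subunit of myosin phosphatase, differed by 0.49 ± 0.13 (adjusted p = 0.0248) and Kcnma1, the large-conductance potassium channel, by 0.50 ± 0.13 (adjusted p = 0.0186). Adcy5, an adenylyl cyclase placed in the prostanoid list for its cAMP, differed by 0.88 ± 0.17 (adjusted p = 0.00258). The smooth muscle markers were higher in males too, as given beside Ptgis, and the part of that difference in these 5 calls was not tested. The count of 5 was 4 to 11 with single libraries left out and 5 to 11 under 8 planned settings, and it was 0 with the rRNA, snRNA and misc RNA share as a covariate. Leaving out WT control male replicate 2 gave 11, as did leaving out replicate 2 of the KO control females, and Ppp1r12b was not called without KO control female replicates 1 and 3 (adjusted p = 0.127).

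**Figure D5:**
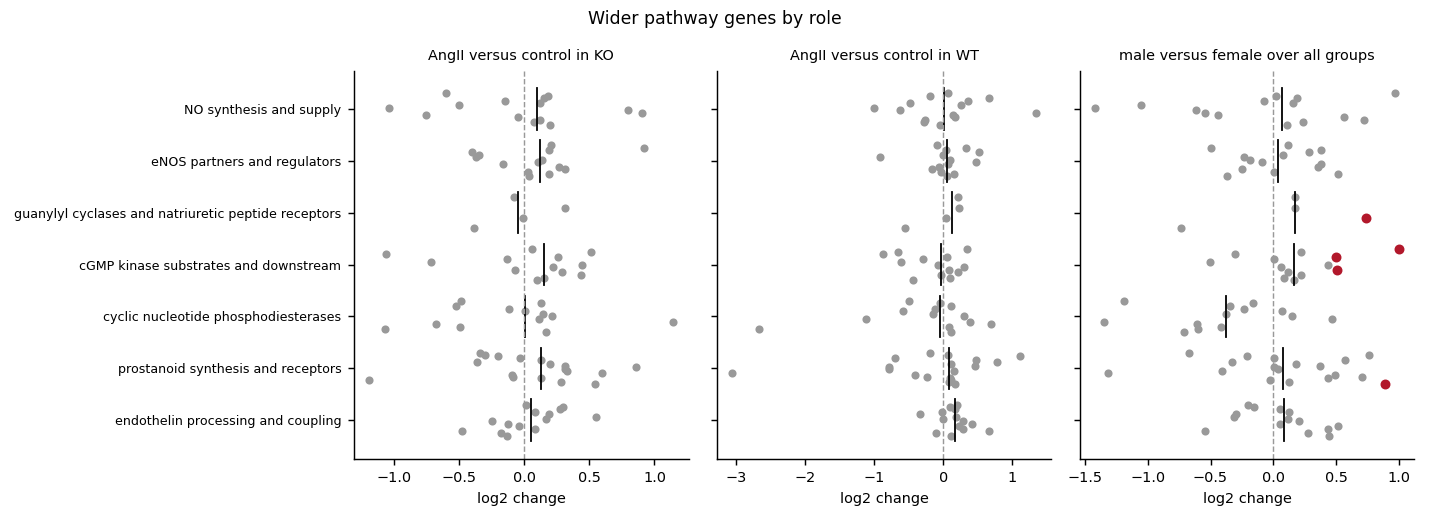
Fitted log2 change of each tested gene of the wider pathway by role list, with the list median as a black line; red points are genes called at an adjusted p under 0.05. Red points appear in the comparison of males with females alone, where 5 of 90 genes were called.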

How the data were processed

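Total RNA from mouse aorta was depleted of ribosomal RNA and sequenced, per the labels' protocols. Per the submitters' processing notes, cutadapt 1.8.1, TopHat2 2.0.14, Bowtie2 2.2.5 and featureCounts 1.4.6 were used with mm10, and whether counting used strand is not given in the sources used here. The deposited values are raw read counts per gene, not normalized by the authors. The labels number the replicates without stating that each is a separate animal, so p-values measure the spread between these libraries, which may be technical in part. Libraries were sequenced in pools, per the labels, but which libraries shared a pool is not given in the sources used here.

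All 24 libraries in 8 groups of 3 (genotype, treatment and sex) were fitted together with edgeR 4.0.16 in R 4.3.3: filterByExpr (minimum count 10, minimum total 15), TMM scaling and the quasi-likelihood test with 16 residual degrees of freedom, with Benjamini-Hochberg adjustment over 16316 genes and a threshold of 0.05. Intervals are 95% and unadjusted. CPM were computed from the deposited counts with a prior of 2 on the log2 scale only. DESeq2 1.42.0 and limma 3.58.1 (voom) were alternatives. Of the 41128 gene IDs 40254 matched GENCODE M21, used for exon lengths. The genes named beyond the members are those called in each role list or with the smallest p in it, and the 2 nearest genes by Pearson correlation. The members and lists were chosen with earlier results of these data known. Intervals include the spread between libraries. The limit for a count of 0 (3 counts) covers counting error only, and reads are not independent molecules. A fit with the percent of counts on rRNA, snRNA and misc RNA genes as a covariate was added after the data were seen, as were the values without KO control female replicates 1 and 3 for single sexes, pathway genes and marker lists. There the 1 KO control female left is assumed to vary like the other groups. Replicate numbers did not pair the libraries (correlation of deviations -0.10 to 0.13 over 84 pairs).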

Additional observations from a re-analysis of the deposited data

Results flagged for a closer look

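Single libraries lay far from the other 5 of their group of genotype and treatment in 4 of the 36 sets of values examined, where chance gives about 1 in 20. Nos3 was at 64.3 CPM in WT control male replicate 2, the highest of the WT controls, and the summed endothelial markers, at 3304 CPM, were also highest in that library. Without it the WT difference of Nos3 with AngII was -0.15, against -0.54 with it. Gucy1b1 was at 88.7 CPM in WT control male replicate 1, the lowest of the WT controls. Ptgis was at 148 CPM in the same library, the highest of the WT controls. That library had the lowest protein-coding share (36.3%) and the lowest TMM factor (0.717) of the series, with 37.7% on rRNA, snRNA and misc RNA. Among WT controls it was also lowest for Gucy1a1, Prkg1, Pde5a, Ednra and Edn1, so its flagged values are not separate observations. Pde5a was at 316 CPM in KO AngII female replicate 3, the highest of the KO AngII mice.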

How the results depend on the processing

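Of 2216 values for the 9 genes recomputed under 36 settings, 2189 kept their direction and side of the threshold or moved by less than their error, 5 became called, 5 lost the call, 15 moved and 2 reversed. The reversals were Edn1 with AngII over both genotypes in females only (0.49, against -0.58 in all libraries) and Ptgis for KO against WT controls in males only (0.23, against -0.25). In WT the number of members called with AngII was 0 in the reported fit, 1 with DESeq2, 2 with limma-voom with quality weights and 1 with only the groups compared. Over both genotypes it was 1 in the reported fit and 0 without KO control female replicates 1 and 3, in males only (Ptgis 0.46, adjusted p = 0.519) and in females only (0.78, adjusted p = 0.200). With the share of rRNA, snRNA and misc RNA counts as a covariate, chosen after seeing the data, it was 0 over both genotypes and 0 for sex, against 1 each, and all-gene counts were 20 in WT, 50 over both genotypes and 50 for sex. For KO against WT controls it was 0, and 1 without KO control female replicate 2, the range over single omissions being 0 to 1. With 1 library left out at a time, Ptgis over both genotypes ranged from 0.59 to 0.72 and for males against females from 0.55 to 0.70, called in all 24 fits each. The replicate block changed no member count (0 in WT, 1 over both genotypes), and the replicate numbers do not pair the libraries. Counts over all genes moved more. For AngII in KO they were 0 in the reported fit, 17 with DESeq2, 0 with limma-voom and 85 with no filter, and for AngII in WT 34, 80, 329 and 134. For KO against WT they were 36, 183, 43 and 260 in controls and 58, 152, 200 and 182 in AngII mice. They were 0, 0, 0 and 12 for the difference of responses, 107, 215, 196 and 276 over both genotypes, and 860, 1458, 1242 and 1247 for sex. With 50 counts in 3 libraries required, controls gave 22, and single omissions of a library gave 0 to 113 in KO, 5 to 86 in WT, 13 to 399 in controls, 35 to 72 in AngII mice, 0 to 2 for the difference of responses, 59 to 264 over both genotypes and 605 to 1562 for sex. Depth limits Edn1, with at most 57 counts in a library.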
